A study of Mus musculus with 4 samples.

Results

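The genes described here are 26 genes of cholesterol biosynthesis and of its control by SREBP2, taken by gene name from an expression table of 54078 features measured in injured mouse kidney. They comprise 5 genes of the mevalonate stage, 3 that make and extend the isoprenoid units, 3 from squalene to lanosterol, 8 from lanosterol to cholesterol, 4 regulators and 3 genes of sterol handling. Each name matched 1 row of the table. RNA-seq of whole kidney was performed on 4 libraries, 2 from WT and 2 from KO mice, each made from the pooled RNA of 3 male mice. WT mice carried the floxed Apela allele on both chromosomes without Cre. KO mice carried the same alleles with Ksp-Cre, which is driven by the Ksp-cadherin promoter of tubular epithelium. The deletion was thus directed at tubular cells, and Apela was not measured by cell type here. Both groups were adult mice labelled C57BL/6 x 129S4/SvJae, their exact age was not given in the sources used here, and both underwent bilateral ischemia of 30 min and were examined at day 3 of reperfusion. No sham-operated library was analysed here, so every value below is a level in injured kidney. With 2 pools a group, a p-value measures the spread between pools and not between single mice.

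Cholesterol is built from acetyl-CoA. The mevalonate stage and the isoprenoid stage yield farnesyl diphosphate, 2 molecules of which are joined into squalene, and squalene is closed into lanosterol, which a further series of enzymes turns into cholesterol. SREBP2 is a transcription factor held in the endoplasmic reticulum with its escort SCAP. When membrane sterol is high, the INSIG proteins keep this complex in place, and when sterol is low it moves to the Golgi, is cut by 2 proteases and the freed part activates most genes of the pathway. Tubule cells of the kidney both make cholesterol and take it up.

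The promoter windows of 5 genes are shown as examples from the mevalonate, isoprenoid and last stages and the regulators, because each was lower in both KO pools and holds CCAAT (RefSeq, GRCm38.p6, 250 bases before to 50 after the annotated start, each printed 5′ to 3′ on the gene's strand). They are Hmgcs1 at chr13:119690101-119690400 on the plus strand, Cyp51 at chr5:4104648-4104947 on the minus strand, Idi1 at chr13:8885356-8885655 on the plus strand, Msmo1 at chr8:64733529-64733828 on the minus strand and Insig1 at chr5:28071162-28071461 on the plus strand. Capitals mark CCAAT, the box bound by NF-Y, a usual partner of SREBP, on either strand (ATTGG on the other) and the sterol-element-like TCACNCCAC.
Hmgcs1: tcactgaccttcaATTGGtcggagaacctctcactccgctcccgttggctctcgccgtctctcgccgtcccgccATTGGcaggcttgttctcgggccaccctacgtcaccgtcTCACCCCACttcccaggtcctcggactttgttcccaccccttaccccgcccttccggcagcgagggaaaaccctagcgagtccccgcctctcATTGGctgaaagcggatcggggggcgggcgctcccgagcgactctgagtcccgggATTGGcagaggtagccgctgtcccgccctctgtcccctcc
Cyp51: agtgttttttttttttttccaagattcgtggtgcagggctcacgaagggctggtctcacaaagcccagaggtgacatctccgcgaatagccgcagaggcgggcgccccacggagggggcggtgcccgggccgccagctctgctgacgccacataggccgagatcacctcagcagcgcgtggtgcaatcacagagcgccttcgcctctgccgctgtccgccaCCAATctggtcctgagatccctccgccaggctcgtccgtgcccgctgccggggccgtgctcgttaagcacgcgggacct
Idi1: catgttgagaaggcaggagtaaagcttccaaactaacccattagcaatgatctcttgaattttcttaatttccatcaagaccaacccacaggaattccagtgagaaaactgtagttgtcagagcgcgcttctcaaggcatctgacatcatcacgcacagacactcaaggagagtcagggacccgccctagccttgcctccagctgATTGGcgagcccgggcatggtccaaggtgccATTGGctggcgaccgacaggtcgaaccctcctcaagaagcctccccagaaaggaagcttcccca
Msmo1: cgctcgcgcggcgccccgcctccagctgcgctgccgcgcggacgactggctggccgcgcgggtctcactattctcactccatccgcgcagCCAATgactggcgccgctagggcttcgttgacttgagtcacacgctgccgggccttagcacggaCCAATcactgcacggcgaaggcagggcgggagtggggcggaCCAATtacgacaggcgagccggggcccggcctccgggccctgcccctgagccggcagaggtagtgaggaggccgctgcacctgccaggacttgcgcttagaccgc
Insig1: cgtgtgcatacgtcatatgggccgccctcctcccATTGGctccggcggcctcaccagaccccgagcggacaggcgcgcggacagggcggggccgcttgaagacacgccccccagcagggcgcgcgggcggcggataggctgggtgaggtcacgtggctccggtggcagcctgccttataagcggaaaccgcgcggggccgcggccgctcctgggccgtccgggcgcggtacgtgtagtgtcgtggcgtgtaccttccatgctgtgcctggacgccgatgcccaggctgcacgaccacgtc

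RefSeq windows were matched for 22 of the 26 members (not Fdft1, Fdps, Stard4 and Sqle). CCAAT was found in at least 1 window of 19 of these 22 genes (86.4%), against 41.1% of all genes with a window. The genes with a window were not limited to those expressed here. CCAAT was in 11 of the 11 matched members lower in both KO pools and in 8 of the other 11. A link between CCAAT and the lower levels was not tested. GGGCGG, the core of the Sp1 site, was also found in 19 of 22, against 38.2% of all genes. It had the same split as CCAAT, 11 of the 11 matched lower members and 8 of the other 11, and a link was not tested either. TCACNCCAC was found in Hmgcs1 alone, at base 114 of its window as TCACCCCAC, against 1.44% of all genes. CACGTG, the E-box core, was found in 5 of 22 against 8.09%. In all, 9 patterns were searched on both strands and some of them overlap: TCACCCCAC is a case of TCACNCCAC and of TCACNCNAC, which was found in Hmgcs1 and Nsdhl, while ATCACGTGA, TCACGTGA and the classical SRE-1 were found in no member's window. A match is a string of letters in this window and was not tested for binding.

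Reads on genes numbered from 16045724 to 16927742 a library, and 5.20 to 6.45% of them were mitochondrial. Apela, the targeted gene, was at 5.27 and 4.57 FPKM (reads per kilobase of gene, divided by a library total) in WT pools 1 and 2, against 0.536 and 0.245 in KO pools 1 and 2, and values below are given in this order. It was lower in both KO pools. Across 15414 genes whose mean FPKM reached 0.5, limma called no gene at an adjusted p under 0.05 (0% of genes), and the smallest adjusted p was 0.466. Fits with other pseudocounts, filters, scalings and weights also called 0 genes. At an unadjusted p under 0.05, 974 genes were found, 467 lower in KO (3.03% of genes) and 507 higher (3.29%). The library totals that the deposited FPKM imply were 0.987 and 1.07 times the reads on genes in WT pools 1 and 2 and 0.988 and 0.968 times in KO pools 1 and 2. How these totals were set is not given in the sources used here. With FPKM set instead by each library's own reads on genes, 581 genes were lower and 345 higher at that level, and the median over all genes was -0.057. No member was called, and what follows describes levels and differences of single genes, with the background share of all genes beside counts of called genes.

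Of the 26 members, 25 passed the filter and were tested, while Fdps was below it. In limma's fit 7 of the 25 were lower in the KO pools at an unadjusted p under 0.05 (28.0%, against 3.03% of all genes) and 0 were higher (against 3.29%). The 7 were Cyp51, Sqle, Msmo1, Idi1, Fdft1, Dhcr7 and Stard4. With all pools kept, 5 of the 7 stayed under that level in every alternative fit. Cyp51 did not with no filter on low values (unadjusted p = 0.0544 in limma). Dhcr7 did not with the replicate number as a block (unadjusted p = 0.0521 in limma). Their log2 fold changes there were unchanged, at -1.04 and -0.43. With FPKM set by reads on genes, 9 members were lower (36.0%, against 3.77% of all genes) and 0 higher (against 2.24%). In 14 members (56.0%) both KO pools were below both WT pools, against 18.1% of all genes, and in 4 both were above, against 19.7%. With FPKM set by reads on genes these were 15 (60.0%, against 24.1%) and 3 (12.0%, against 12.9%). The median log2 fold change of the tested members, KO minus WT, was -0.23, against 0.01 over all genes. Their adjusted p ran from 0.683 to 0.994 in limma. Members share regulators and pools and are not independent of each other. In whole kidney, fewer cells of a type and less RNA per cell cannot be told apart.

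**Figure D1:**
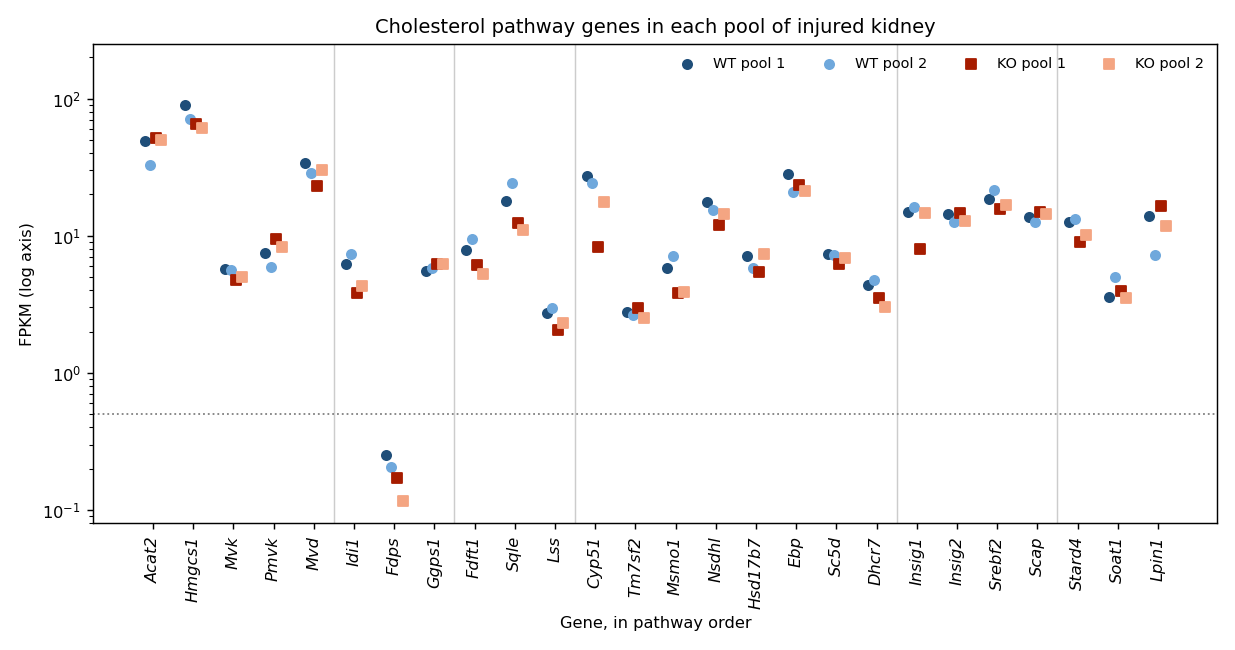
FPKM (log axis) of the 26 genes in pathway order in each of the 4 pools, WT as circles and KO as squares, with grey lines between the stages and a dotted line at the filter of 0.5. Fdps lies below the filter, and the KO pools of Idi1, Sqle, Msmo1 and Cyp51 lie below both of their WT pools.

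The mevalonate stage had the highest summed FPKM of the stages, and its genes lay in both directions. Hmgcs1, which makes HMG-CoA, had an FPKM of 90.1 and 71.4 in WT and 65.2 and 61.3 in KO, with both KO pools lower (log2 fold change -0.34, SE 0.16, and from -0.51 without WT pool 2 to -0.17 without WT pool 1). It was the highest of all the members per length. Mvk, mevalonate kinase, had 5.68 and 5.63 in WT and 4.74 and 5.02 in KO (log2 fold change -0.19, SE 0.11), so its groups did not overlap either. Mvd, which decarboxylates mevalonate diphosphate, had 33.8 and 28.5 in WT and 22.9 and 30.3 in KO, and KO pool 2 lay between the WT pools.

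The other 2 genes of the stage lay the other way. Pmvk, phosphomevalonate kinase, had 7.45 and 5.90 FPKM in WT and 9.39 and 8.34 in KO (log2 fold change 0.39, SE 0.16). Acat2, the cytosolic thiolase that supplies acetoacetyl-CoA, had 49.1 and 32.9 in WT and 51.2 and 50.1 in KO (log2 fold change 0.33, SE 0.22), and its KO pools were above both WT pools although WT pool 1 was close to them. Without WT pool 2 the difference in Acat2 was 0.05 and that in Pmvk was 0.23. In GENCODE M21, 28.9% of the 100-base windows of Acat2 transcripts also occur in other genes, mostly in the adjacent paralog Acat3, so reads may be divided between them. Acat3, looked up after this check, had 19.7 and 15.9 FPKM in WT and 29.9 and 20.4 in KO.

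In the isoprenoid stage, Idi1 was lower in the KO pools. IDI1 interconverts the isoprenoid units isopentenyl and dimethylallyl diphosphate, and its gene lies at chr13:8885501-8892451. Idi1 had 6.18 and 7.38 FPKM in WT and 3.82 and 4.27 in KO, and its KO mean was 0.597 times its WT mean (log2 fold change -0.68, SE 0.14, limma adjusted p = 0.683). The groups did not overlap, and the difference ranged from -0.80 to -0.56 when each pool was left out. Windows shared with other genes made up 21.9% of Idi1, mostly with a pseudogene that had 35 reads in all, against 1260 for Idi1. Ggps1, which makes the geranylgeranyl diphosphate used to modify small GTPases, had 5.52 and 5.84 in WT and 6.26 and 6.25 in KO (log2 fold change 0.13, SE 0.11). Fdps, farnesyl diphosphate synthase, was listed at 0.251 and 0.207 in WT and 0.170 and 0.117 in KO on only 52 reads in all. Of its 4546 windows, 930 are shared with Gm43738, a gene model over the same locus with 0 reads. Pseudogenes share 170 (Gm3571, with 145 reads) and 72 (Gm5873, with 20 reads). Gm3571 had 1.70 and 3.35 FPKM in WT and 1.52 and 1.63 in KO. The level of Fdps is therefore uncertain.

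All 3 genes between farnesyl diphosphate and lanosterol were lower in both KO pools, against 18.1% of all genes. Sqle encodes squalene epoxidase, a rate-limiting enzyme of sterol synthesis, and lies at chr15:59315077-59331192. Sqle had 17.8 and 24.2 FPKM in WT and 12.3 and 11.1 in KO, a KO mean of 0.557 times that of WT (log2 fold change -0.80, SE 0.18, limma adjusted p = 0.705). Its WT pools differed from each other by more than its KO pools did, and leaving out WT pool 2 gave -0.59 while leaving out WT pool 1 gave -1.02. Fdft1, squalene synthase, at chr14:63145150-63179578, had 7.89 and 9.41 in WT and 6.17 and 5.22 in KO (log2 fold change -0.56, SE 0.15, limma adjusted p = 0.760). It overlaps Ctsb on the other strand, a gene with 73012 reads against 2014 for Fdft1, and the counting is not stated to use strand. Ctsb, looked up after this overlap was found, had 172 and 201 in WT and 184 and 170 in KO, and its groups overlapped. Lss, lanosterol synthase, had 2.72 and 2.99 in WT and 2.05 and 2.32 in KO (log2 fold change -0.32, SE 0.14).

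In the last stage, 5 of 8 genes were lower in both KO pools (62.5%, against 18.1% of all genes) and 3 overlapped. Cyp51 removes the 14-alpha methyl group of lanosterol and lies at chr5:4081145-4104746. Cyp51 had 27.2 and 24.1 FPKM in WT and 8.29 and 17.7 in KO, a KO mean of 0.507 times that of WT (log2 fold change -1.04, SE 0.36, limma adjusted p = 0.785), which placed it at rank 153 of 15414 from the lowest. The size of this difference rests on KO pool 1: without it the log2 fold change was -0.52, and without KO pool 2 it was -1.57. Of its windows 1.51% are shared with the adjoining Akap9. Msmo1, a methylsterol oxidase that acts in removing the 4-methyl groups, at chr8:64718139-64733792, had 5.82 and 7.17 in WT and 3.80 and 3.91 in KO (log2 fold change -0.68, SE 0.14, limma adjusted p = 0.690). Here the KO pools were close to each other, and the difference was -0.54 without WT pool 2 and -0.82 without WT pool 1.

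Dhcr7, which reduces 7-dehydrocholesterol to cholesterol, at chr7:143823145-143848410, had 4.37 and 4.72 FPKM in WT and 3.49 and 3.00 in KO (log2 fold change -0.43, SE 0.14, limma adjusted p = 0.785). Nsdhl, which acts with the methylsterol oxidase, had 17.6 and 15.4 in WT and 11.9 and 14.4 in KO (log2 fold change -0.32, SE 0.15, and -0.19 without KO pool 1). Sc5d, sterol C5-desaturase, had 7.34 and 7.24 in WT and 6.23 and 6.90 in KO (log2 fold change -0.14, SE 0.11, and from -0.21 without KO pool 2 to -0.07 without KO pool 1). Both KO pools were below both WT pools in these 3 genes, by the least in Sc5d. Ebp, the sterol isomerase, had 28.3 and 20.7 in WT and 23.3 and 21.1 in KO, Hsd17b7, a ketoreductase, had 7.17 and 5.80 in WT and 5.42 and 7.37 in KO, and Tm7sf2, a sterol C14-reductase, had 2.79 and 2.64 in WT and 2.99 and 2.50 in KO. The groups of these last 3 overlapped, with log2 fold changes of -0.12, -0.03 and 0.01, the last being -0.051 with FPKM set by reads on genes.

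**Figure D2:**
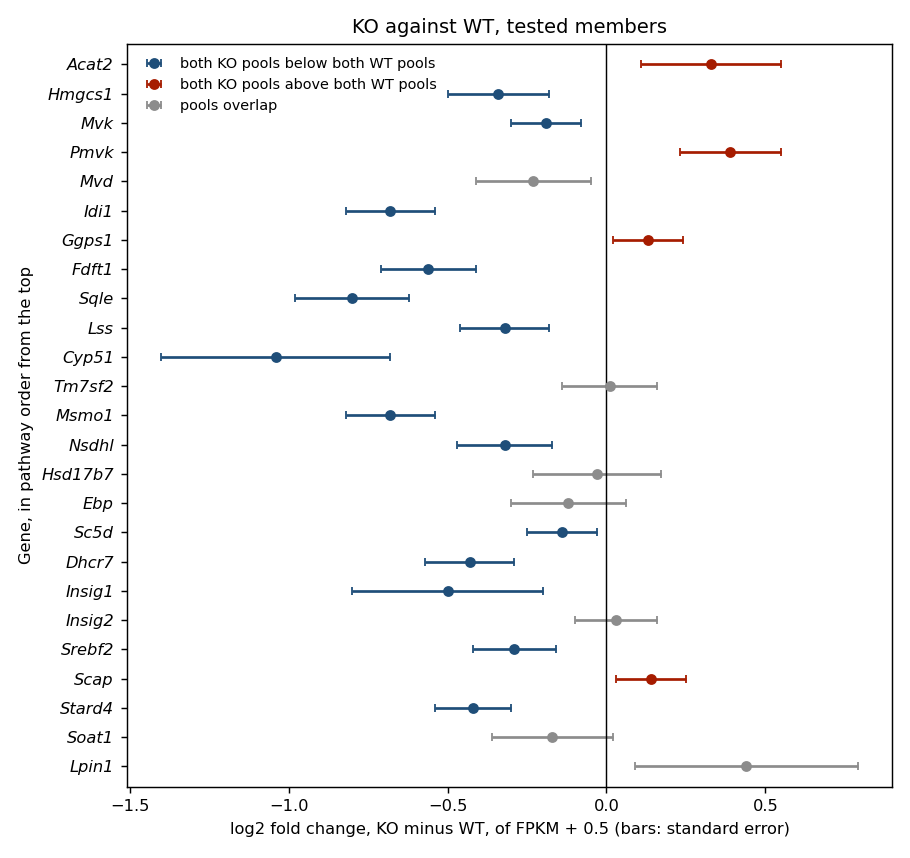
Log2 fold change (KO minus WT, of FPKM + 0.5) of the 25 tested genes in pathway order from the top, with the standard error from limma as bars and the colour giving whether the pools overlap. Cyp51 is at -1.04 and Sqle at -0.80, and Lpin1 at 0.44 is the highest.

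Among the regulators, Insig1 and Srebf2 were lower in both KO pools. Insig1 is itself an SREBP target and its product retains SCAP in the endoplasmic reticulum. Insig1 had 14.9 and 16.3 FPKM in WT and 8.0 and 14.7 in KO (log2 fold change -0.50, SE 0.30). KO pool 2 was just below the lower WT pool, and without KO pool 1 the difference was -0.09. Srebf2, which encodes SREBP2, had 18.6 and 21.5 in WT and 15.7 and 16.8 in KO (log2 fold change -0.29, SE 0.13, and -0.19 without WT pool 2). Insig2, the paralog of Insig1, had 14.3 and 12.6 in WT and 14.7 and 12.9 in KO (log2 fold change 0.03, SE 0.13, and -0.037 with FPKM set by reads on genes), and its groups overlapped. Scap had 13.8 and 12.7 in WT and 14.8 and 14.3 in KO (log2 fold change 0.14, SE 0.11, and 0.08 without WT pool 2), with both KO pools higher.

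Of the sterol handling genes, Stard4 was lower in both KO pools. STARD4 carries cholesterol between membranes. Stard4 had 12.7 and 13.3 FPKM in WT and 9.02 and 10.2 in KO, a KO mean of 0.736 times that of WT (log2 fold change -0.42, SE 0.12, limma adjusted p = 0.760). Soat1, which esterifies cholesterol, had 3.58 and 4.98 in WT and 3.93 and 3.49 in KO, with overlap. Lpin1, a phosphatidate phosphatase and SREBP target, had 14.0 and 7.29 in WT and 16.5 and 11.7 in KO (log2 fold change 0.44, SE 0.35, and from -0.01 without WT pool 2 to 0.88 without WT pool 1), and its WT pools differed by more than its KO pools.

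The pools did not contribute alike. Of the 14 members lower in both KO pools, 10 had their lowest value in KO pool 1 and 4 in KO pool 2. Summed over the 19 enzyme genes, the FPKM was 327 and 282 in WT and 250 and 261 in KO, so the sums did not overlap. Leaving out 1 pool at a time leaves a group of 1 pool, so that the spread in limma's fit comes from the other group and from all genes, and the lone pool is assumed to vary like them. The sign of these 14 cannot turn in such a fit, since they are the members whose pools do not overlap, and only the size of their differences can move. Only sizes are therefore given here. Over the 4 fits the log2 fold change ran from -0.80 to -0.56 in Idi1, from -0.82 to -0.54 in Msmo1 and from -1.02 to -0.59 in Sqle. Without WT pool 2, the members' median log2 fold change was -0.26. Cyp51, Fdft1, Dhcr7 and Stard4 were at -1.13, -0.44, -0.38 and -0.39 there, and Hmgcs1 at -0.51. Without WT pool 1 the members' median was -0.19, and Acat2, Lpin1 and Pmvk were at 0.62, 0.88 and 0.55. The members' median was -0.19 without KO pool 1 and -0.30 without KO pool 2.

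**Figure D3:**
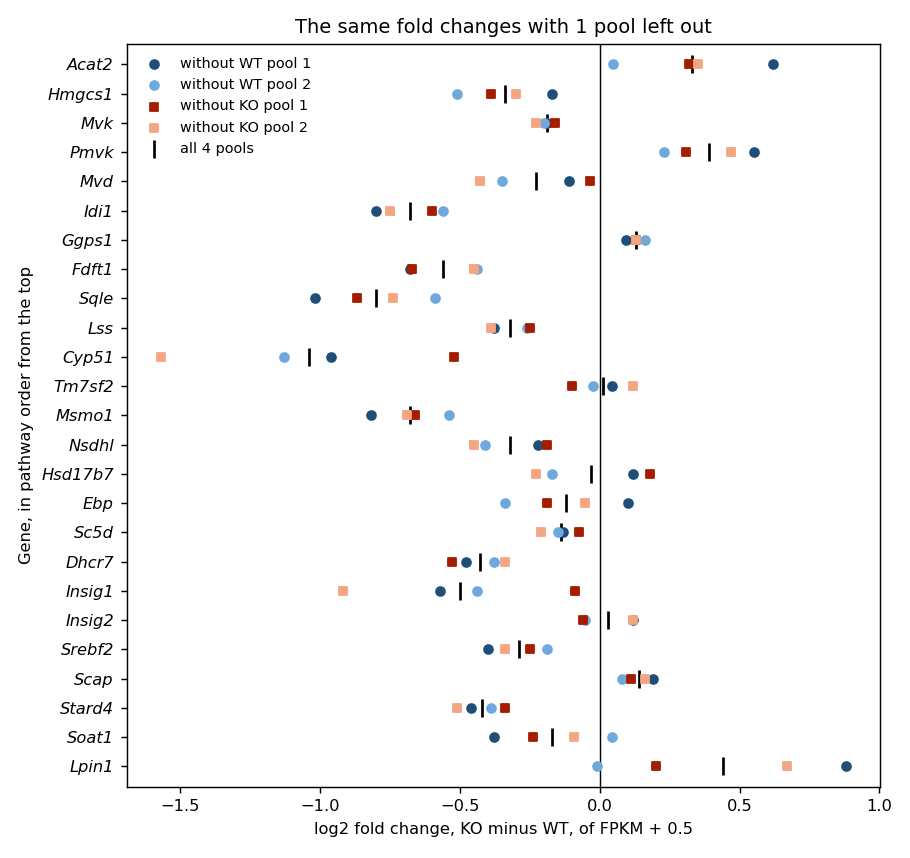
Log2 fold change (KO minus WT, of FPKM + 0.5) of the 25 tested genes with each pool left out in turn (coloured points) and with all 4 pools (black ticks), in pathway order from the top. The points of Idi1, Sqle and Msmo1 all lie below -0.50, those of Cyp51 run from -1.57 to -0.52, and those of Lpin1 run from just under 0 to 0.88.

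Other genes of sterol metabolism were read from lists, with the same fit. In the list of further sterol enzymes, 0 of 6 tested genes were at an unadjusted p under 0.05 in limma, against 3.03% of all genes lower and 3.29% higher. The median log2 fold change of that list was -0.07, and it ran from -0.22 without WT pool 2 to 0.03 without WT pool 1. In the list of uptake, esterification and transport, 0 of 18 tested genes were lower at that level (against 3.03% of all genes), 1 was higher (against 3.29%), Tmem97, a sterol-binding membrane protein (log2 fold change 0.45, SE 0.12), and the median was 0.05, or -0.02 with FPKM set by reads on genes.

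Of the genes that process SREBP or degrade sterol enzymes, 0 of 15 tested were lower (against 3.03% of all genes) and 1 was higher (against 3.29%) at that level, the deubiquitinase gene Usp20 (log2 fold change 0.54, SE 0.12), and the median was 0.06, or -0.01 with FPKM set by reads on genes. Mbtps1, which encodes the site-1 protease, had 9.55 and 10.8 FPKM in WT and 8.75 and 8.05 in KO (log2 fold change -0.26, SE 0.12). Mbtps2, the site-2 protease, had 2.47 and 2.23 in WT and 2.67 and 2.64 in KO (log2 fold change 0.15, SE 0.14, and 0.09 without WT pool 2). Mbtps1 was thus lower in both KO pools and Mbtps2 higher in both. Of 13 isoprenoid-using genes, 0 were lower (against 3.03%), 1 was higher (against 3.29%) at that level, Fntb, a farnesyltransferase subunit (log2 fold change 0.35, SE 0.11), and the median was 0.03, or -0.04 with FPKM set by reads on genes.

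The fatty acid branch, which SREBP1 controls, was divided. Of 17 tested genes, 4 were lower at an unadjusted p under 0.05 (23.5%, against 3.03% of all genes and 28.0% of the members). At that level 1 was higher (against 3.29% of all genes). The list's median was -0.03, and ran from -0.08 without KO pool 1 to 0.01 without KO pool 2. It was -0.10 with FPKM set by reads on genes. In 6 of the 17 both KO pools were below both WT pools (35.3%, against 18.1%). Srebf1, which encodes SREBP1, had 14.0 and 18.9 FPKM in WT and 12.0 and 11.4 in KO (log2 fold change -0.46, SE 0.17, and -0.25 without WT pool 2). The desaturase genes Fads1 and Fads2 were lower, at -0.47 (SE 0.11) and -0.38 (SE 0.12). Scd1, the stearoyl-CoA desaturase, had 24.5 and 20.3 in WT and 8.02 and 16.0 in KO (log2 fold change -0.94, SE 0.34), with KO pool 1 the lowest, as in Cyp51, and -0.47 without that pool. Gpam, which starts glycerolipid synthesis, was the higher one, with 22.0 and 15.8 in WT and 30.7 and 27.5 in KO (log2 fold change 0.63, SE 0.19, and 0.40 without WT pool 2).

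**Figure D4:**
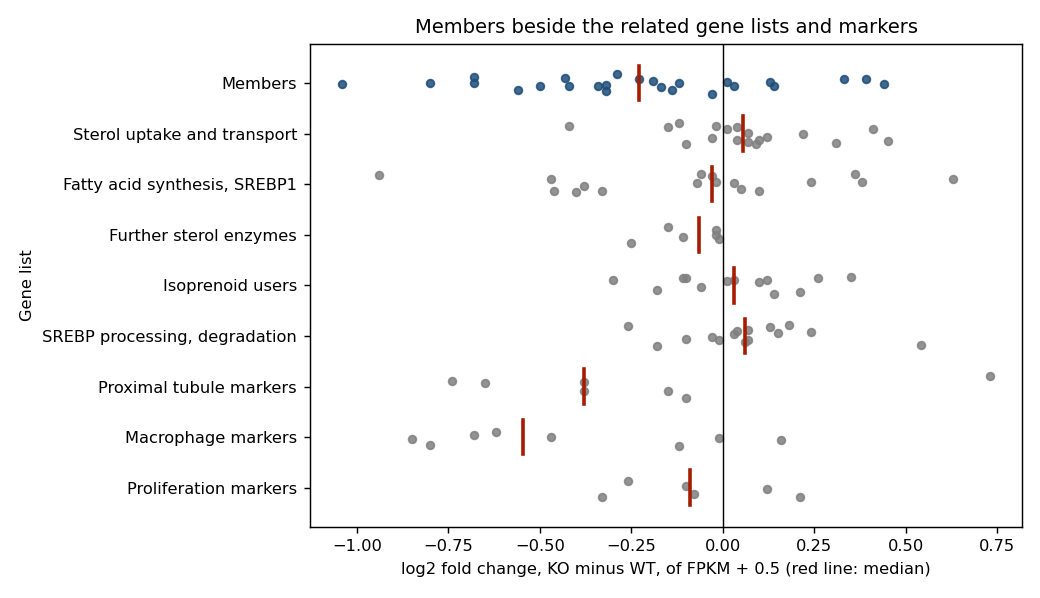
Log2 fold change (KO minus WT, of FPKM + 0.5) of each tested gene in the members' list, 5 related lists and 3 marker lists, 1 point a gene with random vertical offsets and a red line at the list's median. The members' median is -0.23, the related lists lie between -0.07 and 0.06, and the proximal tubule and macrophage markers lie at -0.38 and -0.54, all with 4 pools. With a pool left out the related lists' medians run from -0.22 to 0.11, and that of the macrophage markers from -1.08 to 0.05. With FPKM set by reads on genes the related lists' medians run from -0.14 to -0.01.

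Cell type markers were read beside these values. Of 7 proximal tubule markers, 4 were lower in both KO pools (57.1%, against 18.1% of all genes and 56.0% of the members) and 1 was higher. At an unadjusted p under 0.05, 2 of the 7, Slc5a2 and Lrp2, were lower (28.6%, against 3.03% of all genes and 28.0% of the members) and 0 were higher in limma. The median of these markers was -0.38, and -0.10 without WT pool 1, and their summed FPKM was 1270 to 1710 in WT and 960 to 1460 in KO. Of 8 macrophage markers, 1 was lower in both KO pools (12.5%, against 18.1% of all genes). Their median was -0.54 with all pools, and ran from -1.08 without WT pool 1 to 0.05 without WT pool 2. Their sum was 187 and 446 in WT and 244 and 218 in KO, so WT pool 2 stood above the rest. Among 6 markers of injured tubule, Lcn2 was higher in KO (against 3.29% of all genes) and Vcam1 lower (against 3.03%) at an unadjusted p under 0.05. Of 6 NRF2 target genes, 3 were higher at that level, against 3.29% of all genes, and 0 lower. These were Nqo1, Txnrd1 and Srxn1, with log2 fold changes of 1.90, 0.83 and 0.82, the last being 0.47 without KO pool 2. The series text names adipose tissue where all other labels say kidney. Of the 6 adipose genes, Adipoq was listed at 0 in 3 pools and at 0.268 in KO pool 2, Ucp1 at 0 in all 4, Retn and Lep at no more than 0.0736, and Plin1 at 0.0535 and 0.0125 in WT and 0.347 and 0.119 in KO, while Cidec, a lipid droplet protein gene that is also in the adipose list, had 1.37 and 0.282 in WT and 7.92 and 2.79 in KO. Cidec was the only adipose gene tested and was higher at an unadjusted p under 0.05 (log2 fold change 2.12, SE 0.63, limma adjusted p = 0.785, and from 1.44 without KO pool 1 to 2.80 without KO pool 2), against 3.29% of all genes. Of the 8 adrenal cortex genes, Star was present at 0.953 and 1.05 in WT and 1.06 and 0.809 in KO, Mc2r at 0.239 and 0.447 in WT and 0.344 and 0.237 in KO, Cyp21a1 at no more than 0.173, Hsd3b1, Cyp11b1 and Cyp11a1 at no more than 0.0664, and Cyp11b2 and Nr5a1 were listed at 0 in all 4 pools. No tested gene of the lists for thick ascending limb and distal tubule, collecting duct, podocyte, endothelium, liver (3 of 5 tested), red blood cell, proliferation or adrenal cortex (1 of 8 tested) was at an unadjusted p under 0.05 in limma, and 1 of 4 fibroblast markers, Dcn, was lower (log2 fold change -0.78, SE 0.27, and -0.52 without WT pool 2, against 3.03% of all genes at that level). The part of these cell types in the members' values was not tested.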

How the data were processed

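Libraries were prepared from poly-A RNA. The authors deposited gene-level FPKM, from reads aligned with HISAT2 2.0.5 to mm10 (GRCm38.p6) per the submitters' processing notes, and the counting tool is not given in the sources used here. FPKM times gene length gave whole reads for 100.0% of values in each library (tolerance 0.01), which were used for depth, voom weights and an alternative scaling. The totals behind the deposited FPKM were 0.968 to 1.07 times the reads on genes, the highest in WT pool 2. Groups follow the labels. FPKM + 0.5 was taken to log2, genes whose mean FPKM reached 0.5 were kept, and KO was compared with WT in limma 3.58.1 (R 4.3.3, eBayes with trend, two-sided, Benjamini-Hochberg over all 15414 genes), a procedure tested on simulated data with an assumed dispersion, where it recovered the simulated fold changes but unchanged genes made up more of the adjusted calls than the nominal rate. Fold changes on this scale understate those of low genes. The members, related lists and markers were chosen with earlier results of these data known. All 26 members are named, with Apela, 3 preset list genes (Mbtps1, Mbtps2 and Srebf1) and related-list genes at an unadjusted p under 0.05: Tmem97, Usp20, Fntb, Fads1, Fads2, Scd1 and Gpam. Marker genes were named after their values were seen. Of the related lists, 4 genes are not reported here, and the lists' counts and medians leave them out. Motif patterns and overlapping genes were chosen after values were seen. Gene models came from GENCODE M21, whose coordinates were identical for 97.1% of 53620 shared genes and 25 members, not Tm7sf2. The libraries of a group were not copies of 1 library (chi-square per gene 31.5 in WT, 24.5 in KO). Alternatives were other pseudocounts (0.1, 1), filters (none, 1), quantile scaling, no trend, voom weights, a replicate block, FPKM set by reads on genes (chosen after seeing the data) and leaving out each pool. Nothing in the sources states that pools were prepared in batches.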

Additional observations from a re-analysis of the deposited data

How the results depend on the processing

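No gene passed an adjusted p of 0.05 in limma in the 9 alternatives with all pools or the 4 that left out a pool (adjusted p of Apela from 0.298 to 0.913). Genes at an unadjusted p under 0.05 numbered 974, 1538 with no filter on low values, where more features were tested, 926 with FPKM set by reads on genes (37.3% of them higher, against 52.1%), and 687 to 1720 with a pool left out. Members lower at that level numbered 7, and 4 to 6 with a pool left out, and members higher numbered 0, and 0 to 3 with a pool left out. With all pools the lower members were 28.0% of those tested, against 3.03% of all genes, and the higher were 0%, against 3.29%. With a pool left out, 1 group has a single pool, whose own spread cannot be measured. No conclusion is therefore drawn from the member counts at that level in those fits. Members whose KO pools were both below the WT pools numbered 14, and 15 to 16 with a pool left out, and those whose KO pools were both above numbered 4, and 4 to 7. Groups overlap less often with fewer pools: over all genes the share below went from 18.1% to between 32.0% and 35.9%, and the share above from 19.7% to between 34.3% and 37.7%, while the members' shares were 60.0 to 64.0% below and 16.0 to 28.0% above. The members' median was -0.23, -0.29 after quantile scaling, -0.30 with FPKM set by reads on genes (an alternative chosen after seeing the data), and -0.30 to -0.19 with a pool left out. Setting FPKM by reads on genes divides WT pool 2 by a smaller total and the other pools by larger ones, with the largest increase in KO pool 2. Causes of the other moves were not tested. With FPKM set by reads on genes, Tm7sf2 was at -0.051 and Insig2 at -0.037, both turned in sign, and Ggps1 and Scap were at 0.061 and 0.065. With a pool left out, 6 members turned sign: Tm7sf2 ran from -0.10 to 0.12, Hsd17b7 from -0.23 to 0.18, Ebp from -0.34 to 0.10, Insig2 from -0.059 to 0.12, Soat1 from -0.38 to 0.045 and Lpin1 from -0.0098 to 0.88. With the replicate number as a block, 6 members were lower and 1 higher (Pmvk) at that level, and 932 genes in all, both directions together. The lower and higher shares of all genes in that fit are not given here. These member counts are therefore not set against a background by direction. Over all tested genes, same-numbered pools did not deviate together (correlation -0.00166). With 2 pools a group, this value cannot settle whether a shared number marked a pair. Depth was 174 or more reads in every pool for each tested member.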
